A study of Homo sapiens with 6 samples.

Results

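The genes described here are 10 reported targets of the KMT2A-AFF1 fusion protein: HOXA3, HOXA5, HOXA9, HOXA10, MEIS1, PBX3, MEF2C, CDK6, MYB and JMJD1C. They were taken by symbol from a table of gene counts, which held all 10 among its 20263 Ensembl genes. The counts came from RNA sequencing of MV4-11, an acute myeloid leukemia cell line that carries the KMT2A-AFF1 fusion and an internal tandem duplication in FLT3, and whose genotype the labels give as WT. By their titles and the growth protocol, cells were cultured for 24 h with venetoclax plus cyclosporine A (VEN+CSA), with venetoclax alone (VEN, 100 nM) or with cyclosporine A alone (CSA, 2.5 µM), and each of the 3 groups had 2 libraries. The treatment entry of all 6 libraries instead names gavage, dosing by mouth in animals, and this disagreement within the labels could not be settled here. Venetoclax inhibits the survival protein BCL2, and cyclosporine A binds cyclophilins and inhibits calcineurin. The doses within the combination are not given separately in the labels, and no untreated library is assigned by the labels used here, so every comparison is between treated cells. The labels do not say whether the replicates of a group are different cultures, and the spread that the p-values rest on may therefore be technical.

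KMT2A is a histone methyltransferase that keeps developmental genes active. In the fusion its N-terminal part, which binds DNA rich in CG dinucleotides and binds menin, is joined to AFF1, a scaffold of the transcription elongation machinery. The fusion protein holds its targets at high expression, and among these the HOXA9 and MEIS1 transcription factors with their partner PBX3 are known for sustaining self-renewal of leukemia cells.

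Total counts per library ranged from 26567900 to 30738957. Mitochondrially encoded genes took 41.5% of the counts of VEN replicate 2, against 7.41% to 15.2% in the other 5 libraries, so values that rest on VEN replicate 2 are given with and without it. Markers of the myeloid lineage (CD33, MPO, SPI1, CSF3R and FLT3) summed to 1218 to 1343 CPM in each library. Most of this was FLT3, also a reported fusion target, at 838 to 926 CPM. SPI1 was at 193 to 282 CPM, CD33 at 91.3 to 125, CSF3R at 50.7 to 61.3 and MPO at 5.46 to 9.32. The 3 T cell markers had no count in any library, the 3 B cell markers summed to 1.78 to 3.42 CPM, and the erythroid markers and the epithelial or stromal markers each summed to at most 0.203 CPM. CPM is a count scaled to a common library total, here with factors from the trimmed mean of M-values (TMM), and CPM per kb is CPM divided by the gene's merged exon length, which allows levels of different genes to be compared. In such bulk samples fewer cells of a type and less RNA per cell cannot be told apart.

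The HOXA genes encode homeobox transcription factors that set position along the body axis in the embryo and are active in blood stem and progenitor cells. They lie in a cluster on the minus strand of chromosome 7 (GRCh38, GENCODE 29). HOXA3 is at 27106184 to 27152581, HOXA5 at 27141052 to 27143668, HOXA9 at 27162435 to 27175180 and HOXA10 at 27170591 to 27180261. The annotated span of HOXA5 lies within that of HOXA3, and those of HOXA9 and HOXA10 overlap. Promoter windows from RefSeq (GRCh38.p14, 250 bases before to 50 after a start site) are shown for HOXA9, HOXA10 and MEIS1, whose transcripts were well measured, and for HOXA3, which was close to absent, because KMT2A binds DNA through CG dinucleotides. Each is printed 5′ to 3′ on the strand of the gene, with every CG in capitals.
HOXA9, chr7:27165488-27165787, minus strand: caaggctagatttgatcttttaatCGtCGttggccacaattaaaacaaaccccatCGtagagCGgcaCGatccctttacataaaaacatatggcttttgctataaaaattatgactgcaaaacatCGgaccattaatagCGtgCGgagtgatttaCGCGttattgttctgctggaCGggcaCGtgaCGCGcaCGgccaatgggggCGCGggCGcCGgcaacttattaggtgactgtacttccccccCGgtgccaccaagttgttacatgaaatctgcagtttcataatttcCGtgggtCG
HOXA10, chr7:27179812-27180111, minus strand: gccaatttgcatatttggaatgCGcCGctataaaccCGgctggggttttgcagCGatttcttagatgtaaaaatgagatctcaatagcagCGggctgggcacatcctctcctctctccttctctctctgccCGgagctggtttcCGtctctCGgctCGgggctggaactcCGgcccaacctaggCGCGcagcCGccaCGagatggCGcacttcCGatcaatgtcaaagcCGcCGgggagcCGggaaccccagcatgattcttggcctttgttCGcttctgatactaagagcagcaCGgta
MEIS1, chr2:66434875-66435174, plus strand: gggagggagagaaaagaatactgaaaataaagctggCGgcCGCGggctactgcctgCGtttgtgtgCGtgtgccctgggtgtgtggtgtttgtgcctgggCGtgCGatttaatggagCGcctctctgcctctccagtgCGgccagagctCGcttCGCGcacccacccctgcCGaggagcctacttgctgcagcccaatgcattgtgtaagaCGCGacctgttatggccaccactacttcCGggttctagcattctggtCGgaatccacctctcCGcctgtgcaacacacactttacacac
HOXA3, chr7:27152534-27152833, minus strand: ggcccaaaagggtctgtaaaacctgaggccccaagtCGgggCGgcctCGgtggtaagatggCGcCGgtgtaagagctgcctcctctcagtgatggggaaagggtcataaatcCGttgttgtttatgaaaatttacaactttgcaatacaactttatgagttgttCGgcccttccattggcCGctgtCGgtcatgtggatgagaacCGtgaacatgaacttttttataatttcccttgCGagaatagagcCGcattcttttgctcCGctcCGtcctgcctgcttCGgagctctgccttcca
The printed windows held 22 CG dinucleotides for HOXA9, 21 for HOXA10, 18 for MEIS1 and 15 for HOXA3, against a median of 14 over 35116 RefSeq windows of the same length, of which 96% held at least 1. They do not rank the genes by CG content, since the 7 windows of HOXA3 in the RefSeq table held 0 to 29 and the other window of HOXA10 held 25. The MEIS core motif TGACAG and the PBX-HOX motif TGATTNAT, searched on both strands, matched none of these 4 windows. Over all 25 windows of the 9 members in the RefSeq table, TGACAG matched 4, which were 1 of PBX3 and 3 of MEF2C, and TGATTNAT matched 0. Over all RefSeq windows the shares with a match were 15.8% for TGACAG and 2.82% for TGATTNAT.

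Transcripts of the HOXA cluster came mainly from its HOXA9 to HOXA11 end in every library. HOXA9 had 20.8 and 31.4 CPM per kb in VEN+CSA cells, 18.1 and 30.5 in VEN cells and 20.5 and 21.5 in CSA cells. HOXA10, a neighbour of the same homeobox class, had 5.95 and 5.71 CPM per kb in VEN+CSA cells, 5.45 and 3.56 in VEN cells and 6.20 and 5.21 in CSA cells. HOXA9 was thus above HOXA10 in all 6 libraries, with a ratio per kb of 3.49 and 5.49 in VEN+CSA cells, 3.32 and 8.56 in VEN cells and 3.30 and 4.12 in CSA cells. HOXA3, an anterior member of the cluster, had 4 and 2 counts in VEN+CSA cells, 0 and 0 in VEN cells and 5 and 2 in CSA cells. It did not pass the filter on low counts and was not tested, and no fold is given at so few counts. HOXA5, which acts in lung development and myeloid differentiation, had 12 and 8 counts in VEN+CSA cells, 10 and 5 in VEN cells and 4 and 2 in CSA cells. Both CSA libraries lay below both VEN+CSA libraries, as for 23.5% of all tested genes, and below both VEN libraries, as for 20.8%. HOXA5 reached the level that the filter on low counts asks for in 2 libraries, VEN+CSA replicate 1 and VEN replicate 1, so it was tested through groups in which it was high, and its difference from CSA is a description. Counts from 1 to 20 were even numbers in 64.8% to 66.7% of cases per library, against 49.0% to 51.0% for counts of 100 or more, so a low count may not be a single read pair. Of the 7 cluster genes that are no members 4 were tested, and edgeR called 0 of them, with 0 at an unadjusted p under 0.05, in each comparison. Their median log2 fold changes were 0.018 in VEN+CSA against VEN, 0.16 in VEN+CSA against CSA and 0.11 in VEN against CSA. HOXA11, named after its values were seen, had 15.5 and 13.9 CPM in VEN+CSA cells, 13.3 and 17.3 in VEN cells and 16.5 and 13.6 in CSA cells.

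**Figure D1:**
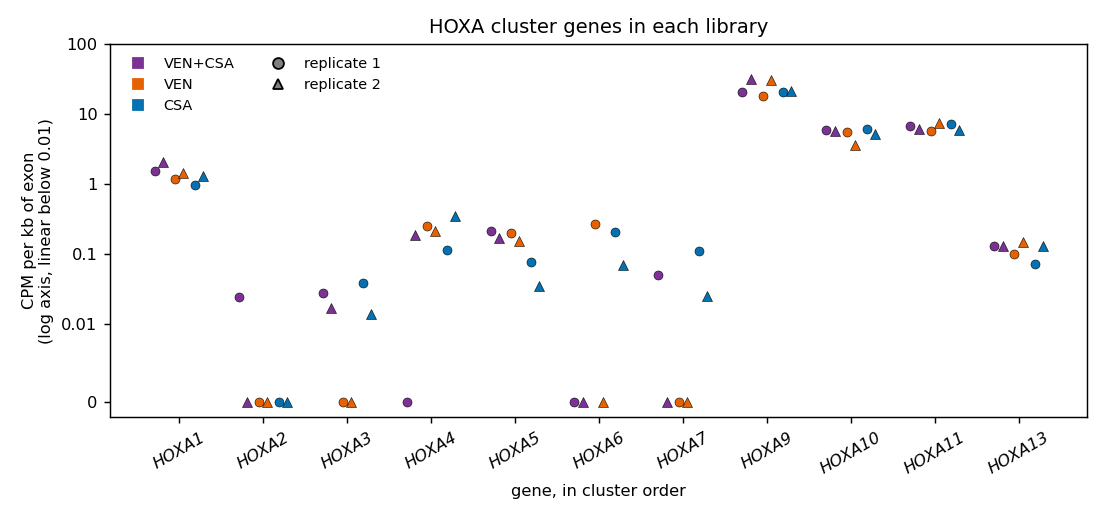
Level of each HOXA cluster gene in CPM per kb of exon (log axis, linear below 0.01), in order along the cluster, with 1 symbol per library coloured by group. HOXA9, HOXA10 and HOXA11 stand above the other genes in all 6 libraries, and HOXA3 lies at 0 in both VEN libraries.

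HOXA9 and HOXA10 did not pass the test in any comparison. HOXA9 was at 62.9 and 94.98 CPM in VEN+CSA cells, 54.8 and 92.4 in VEN cells and 62.0 and 65.0 in CSA cells. The replicates of VEN+CSA and of VEN differed from each other by more than the groups did. The log2 fold change of HOXA9 was 0.10 (standard error, SE, 0.31) in VEN+CSA against VEN and 0.31 (SE 0.31) in VEN+CSA against CSA, with adjusted p = 0.912 and 0.9999 by edgeR's quasi-likelihood test over 12690 genes. The VEN+CSA against VEN value without VEN replicate 2 was 0.53 (SE 0.26, adjusted p = 0.392). HOXA10 was at 22.1 and 21.2 CPM in VEN+CSA cells, 20.2 and 13.2 in VEN cells and 23.0 and 19.3 in CSA cells. VEN replicate 2 was the lowest library, and both VEN+CSA libraries lay above both VEN libraries, as they did for 19.2% of all tested genes. Its log2 fold change was 0.37 (SE 0.25, adjusted p = 0.610) in VEN+CSA against VEN, and 0.10 (SE 0.17, adjusted p = 0.806) without VEN replicate 2. A protein-coding read-through gene of the table, ENSG00000257184, shares 397 bp of exon with HOXA9 and 368 bp with HOXA10, and an antisense gene, HOXA10-AS, shares 422 and 608 bp with them. The read-through gene had 0 to 6 counts per library. The sources used here do not give how shared reads were divided or whether strand was used, so the split between these genes is uncertain. HOXA5 did not pass in any comparison either. No fold against CSA is given for it, since it was tested through groups in which it was high.

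MEIS1 and PBX3 encode homeodomain proteins of the TALE class that bind DNA together with HOX proteins. MEIS1, on chromosome 2 at 66433452 to 66573869, showed nearly the same level under all treatments. It was at 69.5 and 67.0 CPM in VEN+CSA cells, 68.0 and 76.5 in VEN cells and 68.3 and 68.6 in CSA cells. VEN replicate 2 was the highest library, and the other 5 lay between 67.0 and 69.5 CPM. The log2 fold change was −0.08 (95% interval −0.45 to 0.29) in VEN+CSA against VEN, −0.0043 (−0.37 to 0.36) in VEN+CSA against CSA and 0.08 (−0.29 to 0.45) in VEN against CSA, with adjusted p = 0.847, 0.9999 and 0.812 in edgeR's fit. Without VEN replicate 2 the intervals were −0.26 to 0.28, −0.23 to 0.22 and −0.29 to 0.26 in the same order. MEIS1's highest library was 1.14 times its lowest, and this ratio was 1.04 without VEN replicate 2. Over the 8833 tested genes with a mean of at least 10 CPM and no library at 0, the median ratio was 1.61 with 6 libraries and 1.30 without VEN replicate 2. A smaller ratio than that of MEIS1 was found in 2.73% and 0.102% of these genes, a comparison chosen after MEIS1's values were seen.

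PBX3, on chromosome 9 at 125747345 to 125967377, was at 57.6 and 81.8 CPM in VEN+CSA cells, 62.9 and 151.9 in VEN cells and 63.3 and 76.9 in CSA cells. VEN replicate 2 stood above all others, and the remaining 5 libraries overlapped between groups. The log2 fold change in VEN+CSA against VEN was −0.62 (SE 0.43, adjusted p = 0.615), and it was 0.15 (SE 0.24, adjusted p = 0.793) without VEN replicate 2, so that the direction rested on that library. Against CSA it was −0.0072 (SE 0.43, adjusted p = 0.9999). Of 7 other TALE genes 4 were tested and 0 passed in any comparison, with medians of −0.05, −0.03 and 0.07 on the log2 scale in VEN+CSA against VEN, VEN+CSA against CSA and VEN against CSA. At an unadjusted p under 0.05 the count among these 4 was also 0 in each.

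**Figure D2:**
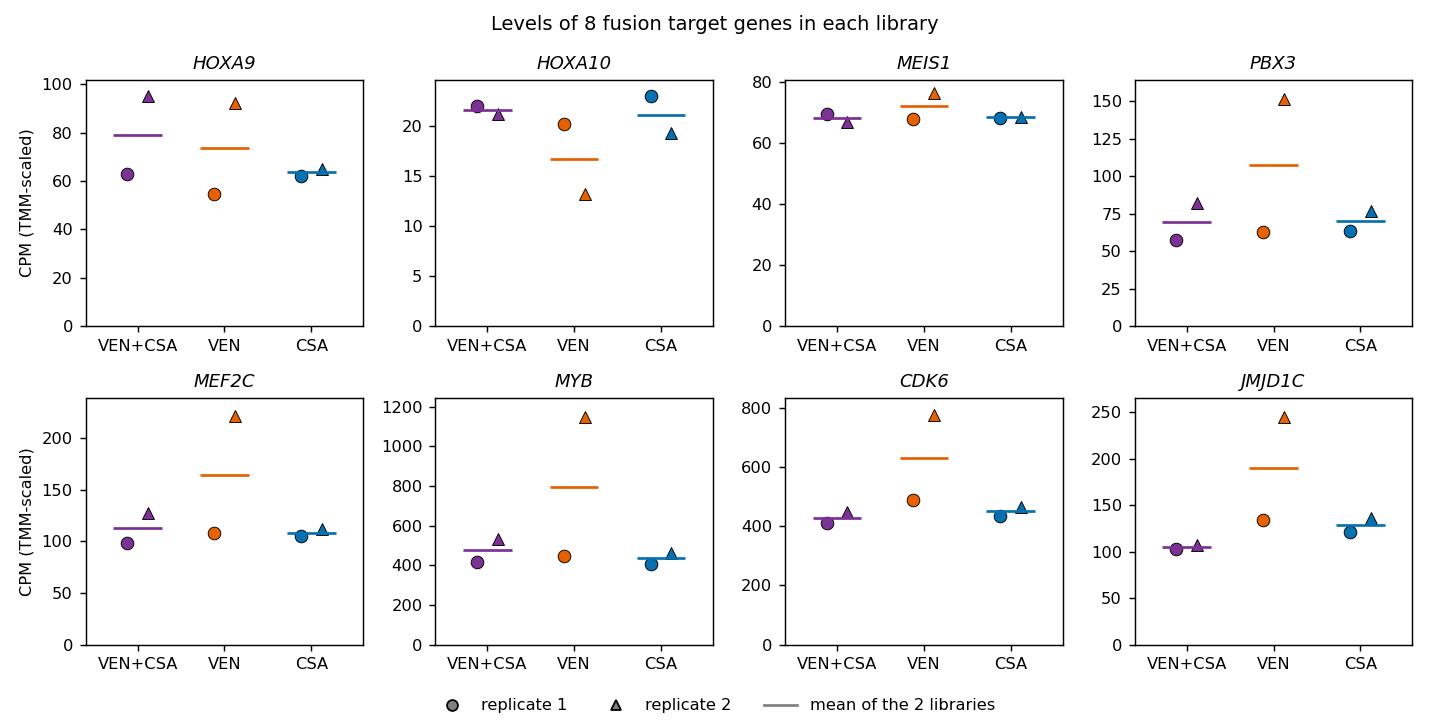
TMM-scaled CPM of 8 fusion targets in each library, with replicate 1 as circles, replicate 2 as triangles and a line at the mean of the 2 libraries of a group. VEN replicate 2 is the highest library for MEIS1, PBX3, MEF2C, MYB, CDK6 and JMJD1C and the lowest for HOXA10, and MEIS1 lies between 67.0 and 76.5 CPM throughout.

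MEF2C, MYB and CDK6 are targets with roles in lineage and proliferation. MEF2C, a MADS-box transcription factor on chromosome 5 (88717117 to 88904257), was at 98.2 and 127 CPM in VEN+CSA cells, 108 and 221 in VEN cells and 105 and 112 in CSA cells. MYB, a transcription factor of blood progenitors on chromosome 6 (135181315 to 135219173), was at 418 and 531 CPM in VEN+CSA cells, 445 and 1147 in VEN cells and 408 and 464 in CSA cells. For both genes the VEN+CSA, CSA and VEN replicate 1 libraries overlapped, and VEN replicate 2 stood well above them. CDK6, a cyclin-dependent kinase of G1 phase on chromosome 7 (92604921 to 92836594), was at 411 and 447 CPM in VEN+CSA cells, 488 and 774 in VEN cells and 434 and 465 in CSA cells. Both VEN libraries of CDK6 lay above both VEN+CSA libraries, as for 18.9% of all tested genes, and above both CSA libraries, as for 20.8%.

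None of these 3 genes passed edgeR's test. In VEN+CSA against VEN the log2 fold changes were −0.54 (SE 0.35) for MEF2C, −0.75 (SE 0.44) for MYB and −0.56 (SE 0.24) for CDK6, with adjusted p = 0.591, 0.564 and 0.488. Without VEN replicate 2 they were 0.07 (SE 0.18), 0.10 (SE 0.18) and −0.18 (SE 0.11), so the direction was kept for CDK6 but not for MEF2C and MYB. Against CSA, where VEN libraries enter only through the shared estimate of spread, they were 0.06 (95% interval −0.81 to 0.93), 0.12 (−0.95 to 1.20) and −0.07 (−0.67 to 0.53). These intervals narrowed to −0.31 to 0.42, −0.25 to 0.49 and −0.30 to 0.16 without VEN replicate 2.

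JMJD1C encodes a protein of the jumonji demethylase family, reported to be needed by leukemia cells with KMT2A fusions, and lies on chromosome 10 (63167221 to 63521850). Its VEN+CSA libraries lay below the other 4, as did those of 9.73% of 12690 tested genes. It was at 103 and 107 CPM in VEN+CSA cells, 134 and 245 in VEN cells and 122 and 136 in CSA cells. The log2 fold change was −0.85 (SE 0.30, adjusted p = 0.420) against VEN and −0.29 (SE 0.29, adjusted p = 0.9999) against CSA. They were −0.34 (SE 0.12, adjusted p = 0.271) and −0.29 (SE 0.10, adjusted p = 0.382) without VEN replicate 2. The unadjusted p without VEN replicate 2 was 0.0319 and 0.0283, at which 15.5% and 12% of 12940 genes also lay under 0.05. In VEN against CSA the log2 fold change was 0.56 (SE 0.30, adjusted p = 0.633), and 0.05 (SE 0.12) without VEN replicate 2.

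Set side by side per kb of exon, the members spanned a wide range of levels. MYB had the highest level (74.3 to 209 CPM per kb, median 82.8), followed by CDK6 (33.5 to 63.1, median 37.2) and HOXA9 (18.1 to 31.4, median 21.1), and these 3 ranges did not overlap one another. PBX3 (12.7 to 33.5, median 15.5), JMJD1C (9.34 to 22.2, median 11.5) and MEF2C (8.35 to 18.8, median 9.33) came next by median. Their ranges overlapped each other and that of HOXA9. PBX3 in VEN replicate 2 (33.54) also lay just above the lowest value of CDK6, in VEN+CSA replicate 1 (33.49). The order by median did not hold in every library, since PBX3 (33.5) was above HOXA9 (30.5) in VEN replicate 2 and MEF2C (10.8) was above JMJD1C (9.69) in VEN+CSA replicate 2. MEIS1 (6.13 to 6.99) and HOXA10 (3.56 to 6.20) followed and overlapped at their edges, and HOXA5 (0.0352 to 0.211) and HOXA3 (0 to 0.0384) were far below.

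Of the 10 members, 9 passed the filter on low counts, and edgeR called 0 of these 9 in each comparison. The background was the same, with 0% of 12690 genes called in each of the 3 comparisons, and 10.8% at an unadjusted p under 0.05 in VEN+CSA against VEN, 3.64% in VEN+CSA against CSA and 4.8% in VEN against CSA. Of the 8 members other than HOXA3 and HOXA5, 1 stood at that unadjusted level in VEN+CSA against VEN, JMJD1C, and 0 in each comparison with CSA. DESeq2 called 0 members, with 2.23%, 0.425% and 0.467% of its tested genes called in the same order. EdgeR without VEN replicate 2 again called 0 members, with 0.379%, 0.185% and 0% of 12940 genes called. Both VEN+CSA libraries lay above both VEN libraries for 1 of the 8, HOXA10, and below them for 2, CDK6 and JMJD1C, as they did for 19.2% and 18.9% of all tested genes. Against CSA they lay above for 0 of the 8 and below for JMJD1C, with 23.5% and 23.7% of all genes. Both VEN libraries lay above both CSA libraries for CDK6 and below for 0 of the 8, with 20.8% and 19.9% of all genes.

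The median log2 fold change of the 8 was −0.55 in VEN+CSA against VEN, 0.014 in VEN+CSA against CSA and 0.52 in VEN against CSA, beside −0.0083, −0.0020 and −0.0032 over all genes tested. The comparisons share libraries. Without VEN replicate 2 the medians were 0.082, 0.013 and −0.013. Without VEN replicate 1, replicate 2 alone stands for VEN. HOXA10 was then higher and PBX3, MEF2C, CDK6, MYB and JMJD1C lower in VEN+CSA than in VEN. That fit rests on 1 VEN library, and its calls are not read as results about the members.

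**Figure D3:**
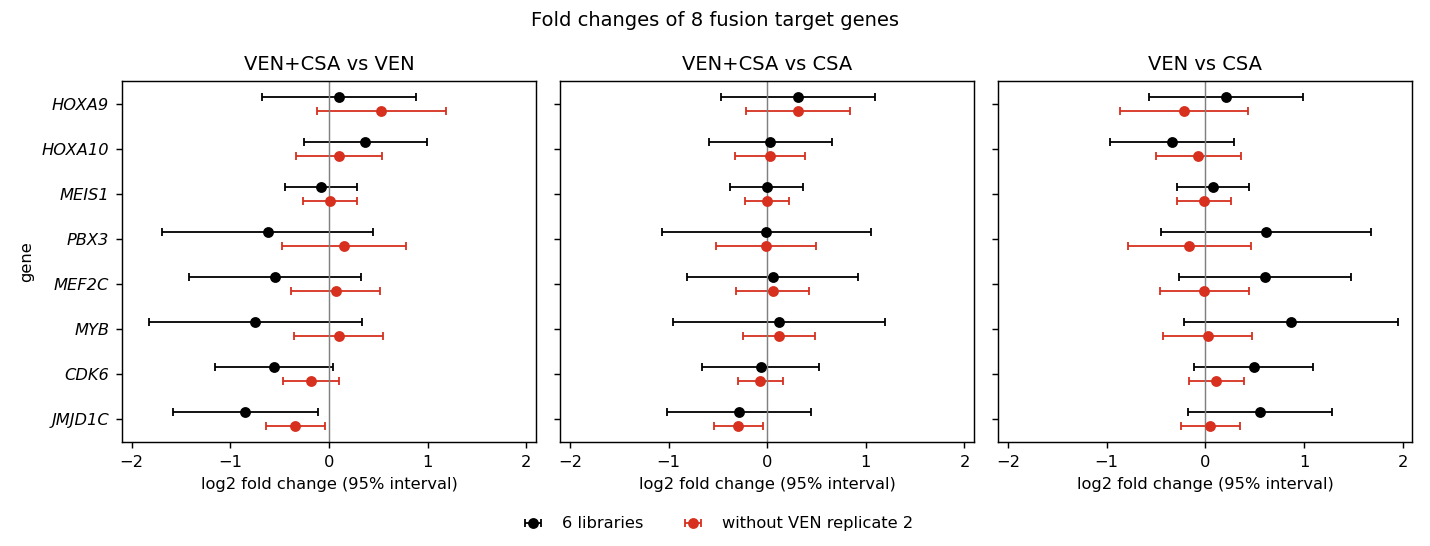
Log2 fold changes of 8 fusion targets with 95% intervals in the 3 comparisons, from the fit of 6 libraries (black) and from the fit without VEN replicate 2 (red). In VEN+CSA against VEN the black points of PBX3, MEF2C and MYB lie at −0.62, −0.54 and −0.75 and the red points at 0.15, 0.07 and 0.10, and MEIS1 stays within 0.1 of 0 in all 3 panels.

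The members differed widely in how far VEN replicate 2 departed from VEN replicate 1. MYB was 2.58 times higher in replicate 2, PBX3 2.42 times, MEF2C 2.05 times, JMJD1C 1.83 times, HOXA9 1.69 times and CDK6 1.59 times, whereas MEIS1 was 1.12 times higher and HOXA10 had a ratio of 0.654. Across all genes this ratio moved with GC content. Its median was 1.47 over 1844 genes of at most 40% GC and 0.642 over 1598 genes above 60% GC. MEF2C, CDK6 and JMJD1C have 39.0%, 39.5% and 39.9% GC, MEIS1 41.7%, MYB 43.9%, PBX3 44.0%, HOXA9 47.8% and HOXA10 54.2%. The median of genes of like GC was 1.24 for 40 to 45%, 1.03 for 45 to 50% and 0.851 for 50 to 55%. MYB, PBX3, MEF2C, JMJD1C, HOXA9 and CDK6 lay above the median of their bin, and MEIS1 and HOXA10 lay below it. With each library's trend in GC content removed, the VEN+CSA against VEN values came to −0.29 for MEF2C, −0.34 for CDK6, −0.62 for JMJD1C, −0.63 for MYB, −0.51 for PBX3 and 0.24 for HOXA10, and 0 members passed.

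**Figure D4:**
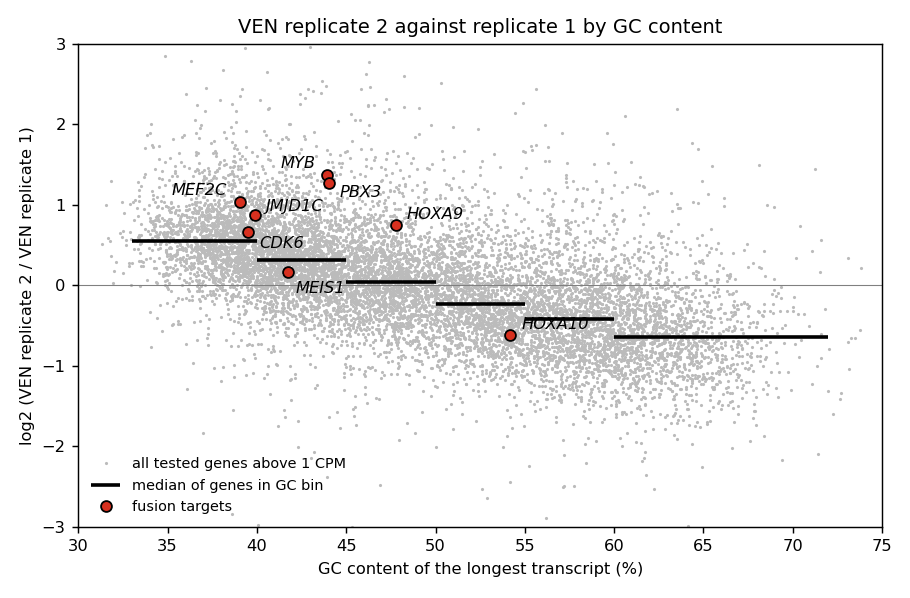
Log2 ratio of VEN replicate 2 to VEN replicate 1 against the GC content of the longest transcript, for 11146 tested genes above 1 CPM in both libraries (grey), with the median of each GC bin (black) and 8 fusion targets (red). The axis covers −3 to 3 and leaves out 19 genes, the medians fall with GC content, and 6 of the 8 targets lie above the median of their bin, with MEIS1 and HOXA10 below.

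The replicates of the other groups differed by less for these members, and only the VEN ratio was set against GC content. Of the 8 members above 10 CPM, replicate 2 was higher than replicate 1 for 6 in VEN+CSA, 7 in VEN and 7 in CSA, where 49.6%, 50.1% and 51.6% of all tested genes were higher. The mitochondrial share was also higher in replicate 2, at 15.2% against 8.06% in VEN+CSA, 41.5% against 8.01% in VEN and 9.71% against 7.41% in CSA. Its part in these members' values was not tested. HOXA10 was lower in replicate 2 of each group.

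The genes joined in the fusion were lowest in the combination. Reads of the fusion, of its reciprocal and of the normal alleles are counted together in the KMT2A and AFF1 rows. KMT2A, on chromosome 11 at 118436464 to 118526832, was at 246 and 245 CPM in VEN+CSA cells, 448 and 609 in VEN cells and 355 and 358 in CSA cells. Both VEN libraries lay above both CSA libraries, as they did for 20.8% of all tested genes. Both VEN+CSA libraries lay below the other 4, as did those of 9.73% of 12690 tested genes. Its log2 fold change was −1.10 (SE 0.19, adjusted p = 0.188) in VEN+CSA against VEN, −0.54 (SE 0.19, adjusted p = 0.9999) in VEN+CSA against CSA and 0.57 (SE 0.19, adjusted p = 0.633) in VEN against CSA by edgeR. Without VEN replicate 2 these were −0.86 (SE 0.09, adjusted p = 0.0501), −0.54 (SE 0.08, adjusted p = 0.141) and 0.32 (SE 0.09, adjusted p = 0.806). AFF1, on chromosome 4 at 86935002 to 87141054, was at 72.7 and 51.8 CPM in VEN+CSA cells, 153 and 164 in VEN cells and 140 and 90.1 in CSA cells. Both VEN+CSA libraries again lay below all others. Its log2 fold change was −1.35 (SE 0.28, adjusted p = 0.234) against VEN and −0.89 (SE 0.28, adjusted p = 0.9999) against CSA, and −1.29 (SE 0.33, adjusted p = 0.206) and −0.89 (SE 0.28, adjusted p = 0.382) without VEN replicate 2. DESeq2 called both genes lower in VEN+CSA than in VEN, with adjusted p = 0.000337 for KMT2A and 0.00214 for AFF1. In that comparison it called 2.23% of 13186 genes, and edgeR with the same 6 libraries called 0% of 12690. With GC trends removed edgeR's values were −1.07 (adjusted p = 0.0723) and −1.29 (adjusted p = 0.157), and neither passed. Of the exons of KMT2A 17.9% are shared on the same strand with another annotated gene, which has no row in the table.

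**Figure D5:**
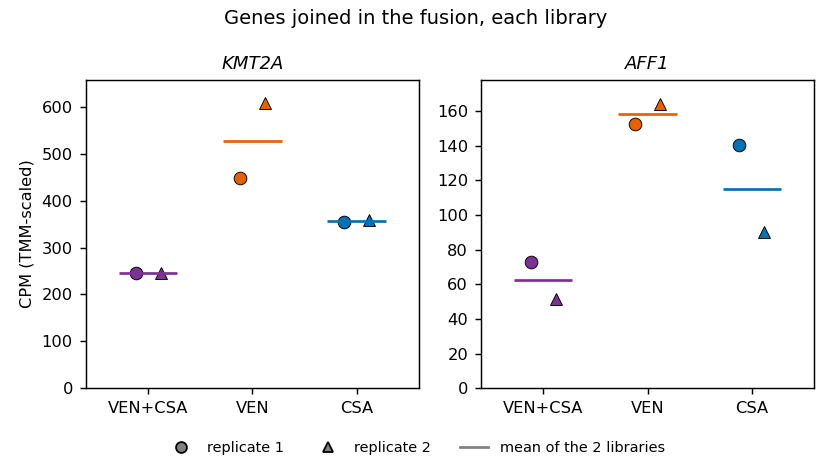
TMM-scaled CPM of KMT2A and AFF1 in each library, with replicate 1 as circles, replicate 2 as triangles and a line at the mean of the 2 libraries of a group. Both VEN+CSA libraries lie below the other 4 for each gene, at 246 and 245 CPM for KMT2A and 72.7 and 51.8 CPM for AFF1. The same holds for 9.73% of 12690 tested genes.

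The wider pathway was read from 3 further lists. Of 20 genes of the KMT2A complex and elongation machinery, these 2 included, all were tested. Against VEN, 15 were lower and 5 higher in VEN+CSA, where 6460 of all 12690 tested genes were lower and 6229 higher. The median of the 20 was −0.23 on the log2 scale, −0.056 without VEN replicate 2 and 0.050 with scaling by library size alone. That scaling put the median of all genes at 0.26. Against CSA, 9 were lower and 11 higher in VEN+CSA, with a median of 0.013, where 6387 of all tested genes were lower and 6303 higher. EdgeR called 0 of the 20 in each comparison. In VEN+CSA against VEN, VEN+CSA against CSA and VEN against CSA, 2, 2 and 1 stood at an unadjusted p under 0.05. The shares of all tested genes at that level were 10.8%, 3.64% and 4.8%. DESeq2 called KMT2A and AFF1 in VEN+CSA against VEN, where it called 2.23% of its tested genes, and 0 of the 20 elsewhere. Of 21 further reported fusion targets 16 were tested, with medians of −0.059, 0.0070 and 0.19 in the same order of comparisons, and 0.070, 0.0056 and −0.072 without VEN replicate 2. EdgeR and DESeq2 each called 0 of them. At an unadjusted p under 0.05 edgeR gave 2, 0 and 0, beside the same 10.8%, 3.64% and 4.8% of all tested genes. Of 12 myeloid maturation genes, which are known to rise when the fusion's activity is blocked, 9 were tested, with medians of 0.031, −0.065 and 0.20. EdgeR called 0 of these 9, with 1 at an unadjusted p under 0.05 in each comparison, beside the same shares of all tested genes. Without VEN replicate 2, when 10 were tested, their medians were −0.40, −0.15 and 0.17, and 4, 3 and 0 of them stood at an unadjusted p under 0.05, beside 15.5%, 12% and 4.78% of all genes. DESeq2 called 1 of the maturation genes, MNDA, in VEN+CSA against VEN, where it called 2.23% of its tested genes. MNDA encodes an interferon-inducible nuclear protein of monocytes and is named here after its values were seen. MNDA was at 17.3 and 22.5 CPM in VEN+CSA cells, 33.2 and 87.9 in VEN cells and 23.8 and 28.4 in CSA cells. Its log2 fold change in VEN+CSA against VEN was −1.60 (SE 0.47, adjusted p = 0.356 by edgeR), and −0.73 (SE 0.21, adjusted p = 0.223) without VEN replicate 2.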

How the data were processed

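Total RNA of 6 libraries was extracted with Trizol, prepared with the KAPA RNA HyperPrep kit and sequenced as 150 bp pairs, per the labels' protocols. The authors deposited whole-number counts per Ensembl gene, not normalized. STAR, RSEM and DESeq2 with build hg38 are named in the submitters' processing notes, without versions or roles. A further 2 columns of the table match no label and were left out.

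Symbols were found for 20148 of 20263 identifiers, and GENCODE 29 holds 20224 of them. Genes passing edgeR's filterByExpr (12690) were TMM-scaled and tested in 1 fit by group (edgeR 4.0.16 in R 4.3.3, glmQLFit with robust = TRUE, then the two-sided glmQLFTest), with Benjamini-Hochberg adjustment over all genes tested and a threshold of 0.05. SE is the log2 fold change divided by the square root of F, and 95% intervals use it. The fit was tested on simulated data with 200 genes changed by 2-fold or 4-fold. It called 6% of the 2-fold and 71% of the 4-fold changes in VEN+CSA against VEN. In VEN+CSA against CSA it called 3% and 73%. Of the unchanged genes it called 5 and 4 in these comparisons. A 2-fold change thus mostly went uncalled in the simulation. The changed genes were drawn from all levels, and VEN replicate 2's trend in GC content was not simulated. These shares therefore do not give how often a change in the members would be called. Alternatives were DESeq2 1.42.0, limma-voom (limma 3.58.1), other scalings and filters, removal of mitochondrial genes, removal of GC trends (loess, span 0.3), only the 4 libraries compared, a replicate block and leaving out each library. The members and lists were chosen with earlier results of these data known. Named genes were the 10 members, KMT2A, AFF1 and, per list, up to 4 genes past the threshold with 6 libraries or without VEN replicate 2, of which there were 0. Leaving out a library gives its remaining partner the spread estimated from the libraries of both other groups.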

Additional observations from a re-analysis of the deposited data

How the results depend on the processing

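With 6 libraries edgeR called 0 genes and 0 members in each comparison. In VEN+CSA against VEN the number of genes called was 294 by DESeq2, 15 without the filter on low counts, 39 with GC trends removed and 0 to 3426 with a library left out, the highest without VEN replicate 1 (49 without VEN replicate 2). Against CSA, VEN+CSA gave 56 by DESeq2, 1 by limma-voom, 4 without the filter, 24 with only the 4 libraries compared and 0 to 24 with a library left out, the highest without either VEN library. In VEN against CSA it was 63 by DESeq2, 2 without the filter and 0 to 4385 with a library left out, the highest without VEN replicate 1. With a library left out, members called were 0 throughout in VEN+CSA against CSA. In VEN+CSA against VEN and in VEN against CSA, HOXA10, PBX3, MEF2C, CDK6, MYB and JMJD1C were called without VEN replicate 1. Those calls set the other groups against VEN replicate 2 alone and are not read as results about the members.

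The median log2 fold change of the 9 tested members, HOXA5 included, in VEN+CSA against VEN was −0.54 with 6 libraries, −0.15 when scaled by library size alone and −0.85 to 0.067 with a library left out. For VEN+CSA against CSA it was −0.060 to 0.22 with a library left out. In VEN against CSA it was 0.13 by library size alone, 0.24 with GC trends removed and −0.011 to 0.93 with a library left out. Library-size scaling put the median over all genes at 0.26, −0.04 and −0.31 in the 3 comparisons. The sign of a member changed at library size alone for MEIS1 in VEN+CSA against VEN (0.21), HOXA10 in VEN+CSA against CSA (−0.011), and HOXA9 (−0.20) and MEIS1 (−0.26) in VEN against CSA. It changed with GC trends removed for MEIS1 in VEN+CSA against VEN (0.034), MEF2C in VEN+CSA against CSA (−0.049) and MEIS1 in VEN against CSA (−0.11). None of these values passed the test, and the cause was not tested.

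With a library left out, signs changed in VEN+CSA against VEN for HOXA5 (−0.070 to 0.30), HOXA9 (−0.23 to 0.53), MEIS1 (−0.16 to 0.0099), PBX3 (−1.12 to 0.15), MEF2C (−0.97 to 0.067) and MYB (−1.27 to 0.097). They changed in VEN+CSA against CSA for HOXA9 (−0.011 to 0.58), HOXA10 (−0.090 to 0.16), MEIS1 (−0.032 to 0.023), PBX3 (−0.28 to 0.22), MEF2C (−0.14 to 0.23) and MYB (−0.060 to 0.28), and in VEN against CSA for HOXA9 (−0.22 to 0.54), MEIS1 (−0.015 to 0.16), PBX3 (−0.16 to 1.11) and MEF2C (−0.011 to 1.03). JMJD1C in VEN+CSA against VEN kept its sign (−1.22 to −0.34), as did KMT2A (−1.31 to −0.86) and AFF1 (−1.61 to −1.12). DESeq2 with 6 libraries called KMT2A and AFF1 in that comparison, in which it called 2.23% of its tested genes.

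The labels give the groups the same replicate numbers but do not say that a number marks a shared culture. Deviations of replicate 1 from the group means correlated across genes at 0.25 between VEN+CSA and VEN, 0.16 between VEN+CSA and CSA and 0.19 between VEN and CSA. With a replicate block 0 genes and 0 members were called in each comparison, and JMJD1C was at −0.80 in VEN+CSA against VEN.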
